A study of Homo sapiens with 15 samples.

Results

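The claudins are small membrane proteins that cross the membrane several times and form the strands of tight junctions, the seals between neighbouring epithelial cells. Some members tighten the seal and others form channels for ions through it, so the set of claudins that a cell makes is known to shape how leaky its layer is. In ovarian carcinoma CLDN3 and CLDN4, which are also the receptors of a bacterial enterotoxin, are known as highly expressed members. The 10 claudins described here (CLDN1, CLDN3, CLDN4, CLDN6, CLDN7, CLDN10, CLDN11, CLDN12, CLDN16 and CLDN18) are 10 of 19775 genes measured. They were chosen by name with results of these arrays in view, so their differences between fractions are given as descriptions with no p-value. All array probe sets annotated to 1 of these genes were taken, 20 in all.

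The arrays measured RNA of PEO1, a human ovarian cancer line in long-standing culture, whose live cells had been sorted on surface CD90 and CD133. The sort gave 3 fractions. CD90-/CD133- cells served as the control fraction, and CD90+/CD133- and CD90+/CD133+ cells were set against them. Each fraction has 5 arrays, numbered replicate 1 to 5. All fractions came from parental PEO1 cells grown in RPMI-1640 with 10% FBS, with no other treatment in the labels. PEO1 is 1 line, so the 5 arrays of a fraction show the spread within that line and not between tumours. Whether the 5 replicate numbers are 5 separate sorts is not given in the labels. A fraction is a sorted mixture of cells, and fewer cells making a transcript cannot be told apart from less transcript per cell.

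The arrays carried the sort. THY1, the gene of CD90, read at most 101.3 in CD90-/CD133- cells, while its lowest array was 795.3 in CD90+/CD133- cells and 728.5 in CD90+/CD133+ cells. PROM1, the gene of CD133, reached at most 44.1 in the first, 156 in the next and 1652 in the last of these fractions, where its lowest array was 429.3. All 10 epithelial markers had a mean intensity of 64 or more, while 5 of 6 fibroblast, 3 of 4 leukocyte and 4 of 4 endothelial markers measured did not. The summed intensity of the epithelial markers ranged from 42090 to 51920 for CD90-/CD133- cells, from 28990 to 38430 for CD90+/CD133- cells and from 26820 to 38770 for CD90+/CD133+ cells. Single epithelial markers went both ways. Limma called EPCAM and MUC1 higher and KRT8, KRT18 and KRT19 lower in both CD90+ fractions, and WT1 lower in CD90+/CD133+ cells. The median log2 difference of these markers was 0.08 for CD90+/CD133- and -0.13 for CD90+/CD133+ cells. The 3′ minus 5′ gap of the ACTB control, a sign of RNA quality, was 1.84 ± 0.322 (log2, SD, n = 5) for CD90-/CD133-, 2.46 ± 0.564 for CD90+/CD133- and 1.70 ± 0.662 for CD90+/CD133+ arrays, and the same gap of the GAPDH control was 0.0565 ± 0.0317, 0.186 ± 0.0789 and 0.0498 ± 0.0408 in that order. The summed leukocyte markers ran from 110.9 to 135.3 for CD90-/CD133-, from 159.1 to 217.3 for CD90+/CD133- and from 142.4 to 232.5 for CD90+/CD133+ cells. In this list CD14 was called higher in both CD90+ fractions (geometric means 56.0, 108.7 and 112.1, limma adjusted p = 0.00356 and 0.00292), while PTPRC and LYZ were under the floor of 16 on all 15 arrays and CD3E stayed under 64. The fibroblast sums lay between 193.9 and 283.3 and the endothelial sums between 102.5 and 138.7 over all arrays. The part of the RNA quality and of these markers in the results was not tested.

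The promoters of CLDN3, CLDN4, CLDN7 and CLDN11 are shown because these genes moved in both directions, and because CLDN3 and CLDN4 are neighbours. Each is the 250 bases before a RefSeq transcription start on GRCh38.p14, printed 5′ to 3′ on the strand of the gene. Capitals mark matches on either strand to any of 4 motifs. CAGGTG is the E-box searched. GGGCGG is the GC box. The CCAAT box was searched by the letters in its name. TATAAA is the TATA box. CLDN3 lies at chr7:73770271-73770520 (minus strand), CLDN4 at chr7:73830746-73830995 (plus strand), the CLDN7 window at chr17:7262479-7262728 (minus strand) and the CLDN11 window at chr3:170418618-170418867 (plus strand).
CLDN3: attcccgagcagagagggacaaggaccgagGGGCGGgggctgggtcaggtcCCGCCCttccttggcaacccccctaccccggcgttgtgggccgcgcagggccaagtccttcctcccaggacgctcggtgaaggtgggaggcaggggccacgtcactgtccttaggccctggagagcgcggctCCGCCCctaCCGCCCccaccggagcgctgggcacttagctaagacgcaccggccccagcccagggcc
CLDN4: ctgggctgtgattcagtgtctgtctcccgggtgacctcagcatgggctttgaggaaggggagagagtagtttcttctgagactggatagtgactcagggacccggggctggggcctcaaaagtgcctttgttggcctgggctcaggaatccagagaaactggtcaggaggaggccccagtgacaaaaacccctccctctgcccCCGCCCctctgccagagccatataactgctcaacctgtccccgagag
CLDN7: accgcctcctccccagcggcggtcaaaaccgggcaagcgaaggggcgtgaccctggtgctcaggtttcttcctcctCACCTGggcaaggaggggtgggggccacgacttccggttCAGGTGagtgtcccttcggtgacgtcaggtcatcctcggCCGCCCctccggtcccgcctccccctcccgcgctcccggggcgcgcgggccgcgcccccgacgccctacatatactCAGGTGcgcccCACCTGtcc
CLDN11: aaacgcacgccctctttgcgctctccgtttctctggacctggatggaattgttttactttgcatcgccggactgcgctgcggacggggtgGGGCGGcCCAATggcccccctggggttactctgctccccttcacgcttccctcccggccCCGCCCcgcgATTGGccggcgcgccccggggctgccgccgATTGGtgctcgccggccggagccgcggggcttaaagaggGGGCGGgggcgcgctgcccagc

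CLDN3 held 4 GC boxes and CLDN4 held 1, with none of the other motifs in either window. The CLDN7 window shown held 4 E-boxes, the motif that Snail and ZEB repressors are known to bind, and 1 GC box. The other CLDN7 window, not shown, held 0 E-boxes and 1 CCAAT box. CLDN11 held 3 GC boxes and 3 CCAAT boxes in the window shown, and 1 GC box alone in its other window. Among 35116 windows of this length, 17.5% held the E-box, 42.6% the GC box, 32.0% CCAAT and 10.7% the TATA box. Of the 15 windows of the 10 claudins, 2 held an E-box, 9 a GC box, 5 a CCAAT box and 0 a TATA box. A match is only a run of letters, and these arrays measured no binding.

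With CD90-/CD133- cells as the reference, CLDN3, CLDN11 and CLDN12 of the 10 claudins were called higher in the CD90+/CD133- fraction and CLDN4 and CLDN7 lower, by limma at an adjusted p under 0.05 over all genes. Among all 19775 genes 14.8% were called higher and 17.6% lower in that comparison. The same 5 claudins were called in the same directions in CD90+/CD133+ against CD90-/CD133- cells, where 14.2% of all genes were called higher and 17.0% lower, and both comparisons share the CD90-/CD133- arrays. None was called between the CD90+ fractions (2.30% of all genes higher, 2.31% lower), although 3 of the 10 had an unadjusted p under 0.05 there, and the methods' t-test called 0. By the 1.5-fold rule that the study's methods give for the arrays, taken here on arithmetic means, 3 of the 10 (CLDN3, CLDN4 and CLDN11) passed in each comparison with CD90-/CD133- cells and 0 between the CD90+ fractions, where the second CLDN3 probe set passed with a ratio of 1.99. The median log2 difference of the 10 was -0.10, -0.02 and 0.14 in these comparisons, against 0 for all genes in each. Since the members were chosen with these contrasts known, nothing is read from the counts. A gene is given by its brightest probe set, as linear intensity in arbitrary units per array and as a difference of mean log2 intensity.

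**Figure D1:**
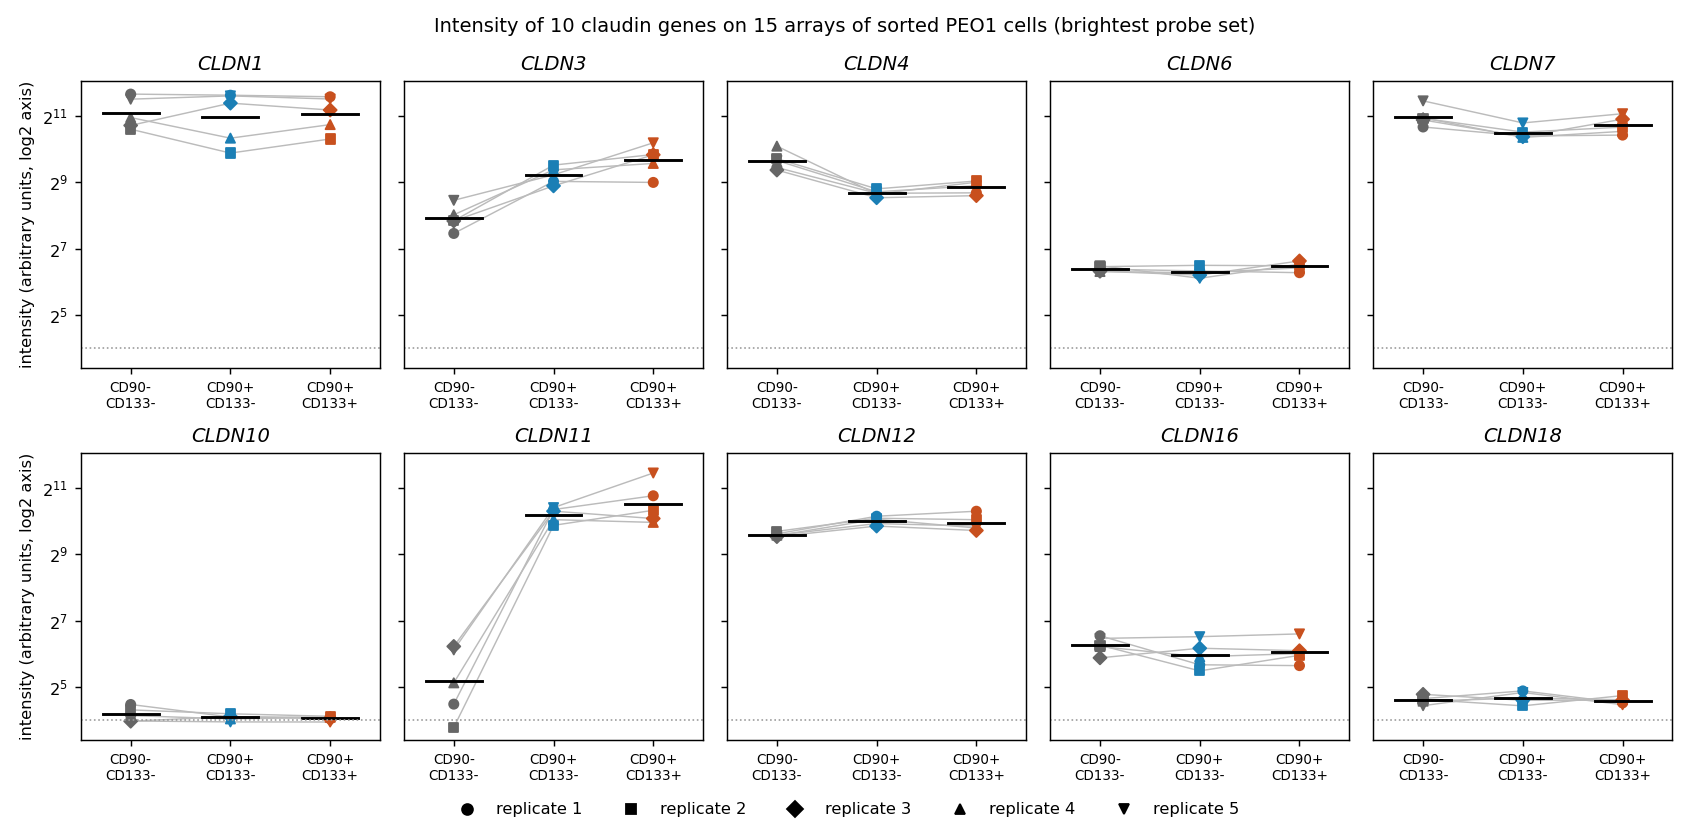
Intensity (log2 axis) of the brightest probe set of each of the 10 claudins on the 15 arrays, with 1 point per array, grey lines joining arrays of 1 replicate number, black bars at the geometric mean and a dotted line at the floor of 16. CLDN11 and CLDN3 lie higher and CLDN4 lower on every CD90+ array than on any CD90-/CD133- array.

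CLDN11, the claudin of myelin and of the barrier between Sertoli cells of the testis, showed the widest gap of the 10. It read 22.4, 13.8, 74.7, 34.9 and 69.5 on the CD90-/CD133- arrays (replicates 1 to 5). On the CD90+/CD133- arrays it was 1304, 937.4, 1261, 1056 and 1358. The CD90+/CD133+ arrays gave 1739, 1284, 1081, 997.4 and 2799. The lowest CD90+ array was thus far above the highest CD90-/CD133- array, and 1 CD90-/CD133- array lay under the floor of 16. With that array set to 16, CD90+/CD133- cells were 32.1-fold higher than CD90-/CD133- cells by geometric means (log2 difference 5.00, SE 0.359, n = 5 pairs, higher in 5 of 5). For CD90+/CD133+ cells the fold was 40.1 (log2 difference 5.33, SE 0.359, higher in 5 of 5). By arithmetic means the folds were 27.2 and 36.3, and with a floor of 64 the log2 differences were 4.13 and 4.45. The CD90+ fractions overlapped each other, with a log2 difference of 0.32 (SE 0.359) and 3 of 5 pairs higher in CD90+/CD133+ cells.

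The other CLDN11 probe sets did not show this gap. The probe set 206908_s_at read 71.2, 76.3, 66.5, 65.2 and 46.5 on the CD90-/CD133- arrays, between 66.2 and 84.2 for CD90+/CD133- cells and between 70.5 and 93.9 for CD90+/CD133+ cells. Its log2 differences from CD90-/CD133- cells were 0.22 (SE 0.143) and 0.40 (SE 0.143), and its groups overlapped. The probe set 1561105_at stayed under the floor on all 15 arrays. The rise of CLDN11 therefore rests on 1 of 3 probe sets, 228335_at, and which transcripts each probe set detects was not tested. That probe set was the brightest over all arrays through its CD90+ readings, the same ones that make the gap. In CD90-/CD133- cells 206908_s_at was brighter (geometric mean 64.2, against 36.5 for 228335_at).

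CLDN3 was higher in both CD90+ fractions, and its 2 probe sets moved together. Its intensity was 175.6, 228.8, 228.1, 259.4 and 350.9 on the CD90-/CD133- arrays. CD90+/CD133- arrays gave 521.4, 732.3, 474.5, 663.2 and 597.6, and CD90+/CD133+ arrays 510.1, 913.8, 908.6, 758.4 and 1167. No CD90+ array overlapped the CD90-/CD133- arrays. The log2 difference from CD90-/CD133- cells was 1.29 in CD90+/CD133- cells (SE 0.158, 2.44-fold) and 1.76 in CD90+/CD133+ cells (SE 0.158, 3.39-fold), in 5 of 5 pairs each. The second probe set, 203953_s_at, differed by 1.19 (SE 0.189) and 2.10 (SE 0.189). Between the CD90+ fractions CD133+ cells read higher by 0.48 (SE 0.158) in 4 of 5 pairs with the brightest probe set and by 0.91 (SE 0.189) in 5 of 5 with the second, with overlapping groups. The brightest set, 203954_x_at, carries the array maker's mark for probes that may also match other transcripts.

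CLDN4, the neighbour of CLDN3 on chromosome 7 with no protein-coding gene starting between them, ran the other way. Its intensity was 696.5, 838.2, 660.7, 1088 and 806.6 on the CD90-/CD133- arrays. It was 406.5, 445.7, 370.3, 401.0 and 419.2 on the CD90+/CD133- arrays, and 410.3, 525.6, 386.9, 512.0 and 476.2 on the CD90+/CD133+ arrays. Every CD90+ array lay below every CD90-/CD133- array. The log2 difference was -0.98 in CD90+/CD133- cells (SE 0.0847, 1.97-fold lower) and -0.81 in CD90+/CD133+ cells (SE 0.0847, 1.75-fold lower), in 5 of 5 pairs each. CD90+/CD133+ cells were higher than CD90+/CD133- cells by 0.17 (SE 0.0847) in 5 of 5 pairs, and the groups overlapped. A dim second probe set, 1569421_at, stayed at 20.9 to 29.6 on all arrays and differed by -0.02 and -0.06 (SE 0.0914 each).

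CLDN7, a claudin of the basal and lateral membrane that is known to bind EpCAM, was lower in the CD90+ fractions by a smaller step. It read 1624, 1947, 1882, 1966 and 2803 on the CD90-/CD133- arrays and 1346, 1459, 1325, 1307 and 1768 on the CD90+/CD133- arrays. The CD90+/CD133+ arrays gave 1371, 1620, 1913, 1483 and 2143. The groups overlapped, but each CD90+/CD133- array was below its CD90-/CD133- partner, with a log2 difference of -0.49 (SE 0.0748, 1.40-fold lower), which the methods' t-test did not call. In CD90+/CD133+ cells the difference was -0.26 (SE 0.0748) with 4 of 5 pairs lower, and this call was lost when any 1 of 7 arrays (CD90-/CD133- replicates 2, 4 or 5, CD90+/CD133+ replicates 1, 2, 4 or 5) was left out, with the difference over all 15 such fits running from -0.33 to -0.22. CD90+/CD133+ cells were above CD90+/CD133- cells in 5 of 5 pairs, by 0.23 (SE 0.0748).

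CLDN12, an unusual claudin that lacks the C-terminal tail motif by which the others bind scaffold proteins, was slightly higher in CD90+ cells. It read 785.4, 826.8, 740.5, 762.4 and 757.3 on the CD90-/CD133- arrays, 1134, 1088, 923.5, 973.2 and 1065 on the CD90+/CD133- arrays, and 1259, 1055, 841.7, 923.0 and 887.0 on the CD90+/CD133+ arrays. All CD90+ arrays stood above all CD90-/CD133- arrays. The log2 difference was 0.42 (SE 0.0666, 1.34-fold) in CD90+/CD133- cells and 0.34 (SE 0.0666, 1.27-fold) in CD90+/CD133+ cells, in 5 of 5 pairs each. The methods' t-test did not call it in CD90+/CD133+ cells.

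**Figure D2:**
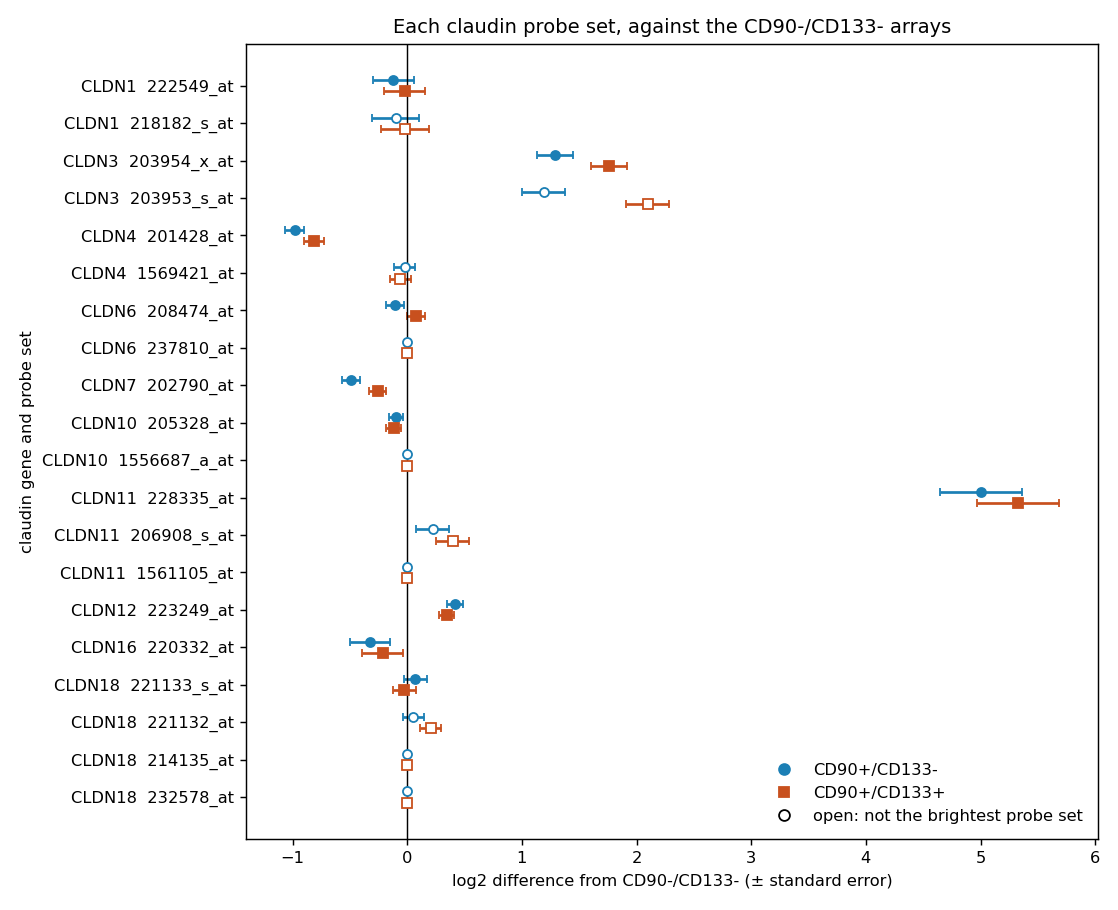
Log2 difference (± standard error of the limma fit) of each of the 20 claudin probe sets from the CD90-/CD133- arrays, for CD90+/CD133- (circles) and CD90+/CD133+ arrays (squares), filled where the probe set is the brightest of its gene. CLDN11 differs by 5.00 and 5.33 on 228335_at and by 0.22 and 0.40 on 206908_s_at, while both CLDN3 probe sets differ by more than 1.

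CLDN1, the claudin that seals the epidermis, was bright and followed the replicate number and not the fraction. It read 3229, 1550, 1678, 1978 and 2904 on the CD90-/CD133- arrays, 3154, 941.6, 2673, 1286 and 3110 on the CD90+/CD133- arrays and 3054, 1264, 2315, 1707 and 2914 on the CD90+/CD133+ arrays. Replicate 2 was the lowest and replicate 1 the highest in all fractions. The geometric mean over fractions ran from 1227 for replicate 2 to 3145 for replicate 1. Replicate number took 84.9% of the sum of squares of its log2 intensity and fraction 0.871%, against medians of 35.2% and 40.1% over the 9988 genes of mean log2 intensity at or above that of 64. The second probe set, 218182_s_at, read 454.7, 428.5 and 430.3 in replicate 1 and 178.1, 102.0 and 142.3 in replicate 2, in the order of fractions above. The log2 difference from CD90-/CD133- cells was -0.12 (SE 0.177) for CD90+/CD133- and -0.02 (SE 0.177) for CD90+/CD133+ cells.

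Fraction took 94.2% of the sum of squares of CLDN11, 84.4% of CLDN4 and 84.1% of CLDN3. For CLDN12 it took 62.9%, with 25.2% for the replicate number. CLDN7 was split, with 44.5% for the fraction and 46.7% for the number, and replicate 5 was its highest array in all 3 fractions.

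**Figure D3:**
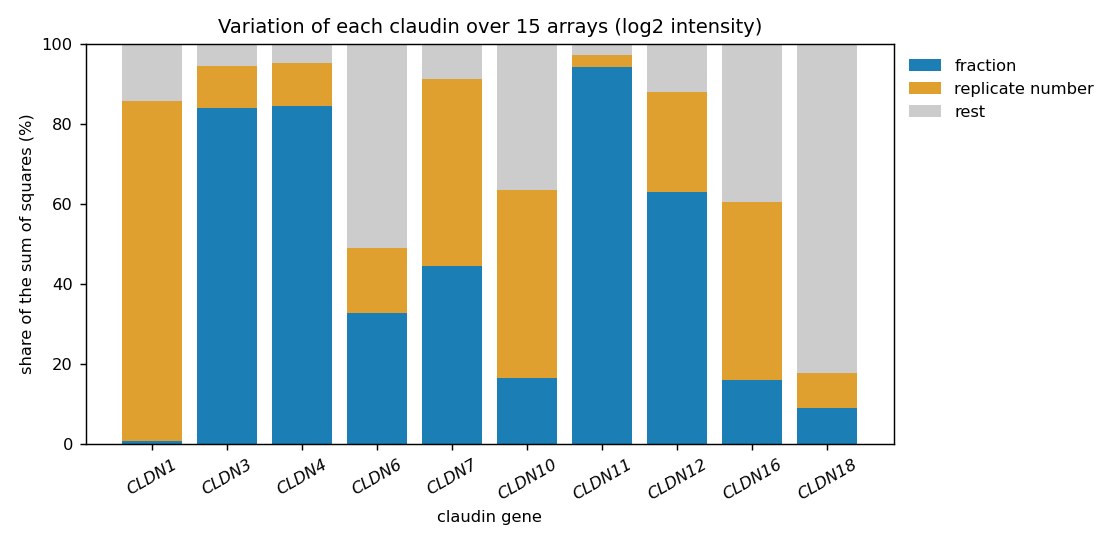
Share (%) of the sum of squares of log2 intensity over 15 arrays taken by fraction, by replicate number and by the rest, for each of the 10 claudins. Fraction takes most for CLDN3, CLDN4 and CLDN11 (84.1%, 84.4% and 94.2%), and replicate number takes 84.9% for CLDN1.

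CLDN16, the renal claudin of magnesium uptake, lies on chromosome 3 and its span encloses CLDN1. It read between 58.9 and 93.4 in CD90-/CD133- cells, between 44.8 and 91.6 in CD90+/CD133- cells and between 50.0 and 97.0 in CD90+/CD133+ cells, so the groups overlapped. The log2 differences from CD90-/CD133- cells were -0.32 (SE 0.177) and -0.21 (SE 0.177), with 3 of 5 pairs lower each. CLDN6, a claudin of embryonic epithelia, lay between 68.9 and 98.9 on all arrays on its brighter probe set, and differed by -0.11 (SE 0.0802) and 0.08 (SE 0.0802). CLDN18, of lung and stomach, lay between 21.6 and 29.5 and differed by 0.07 and -0.02 (SE 0.101 each). CLDN10, an ion channel claudin of kidney, lay between 15.4 and 22.2, near the floor, and differed by -0.10 and -0.12 (SE 0.0643 each). Of the dimmer probe sets of these genes, 221132_at of CLDN18 lay between 15.5 and 22.5, and 1 of CLDN6, 1 of CLDN10 and 2 of CLDN18 stayed under the floor on every array. Low intensities here do not show that a transcript was absent, since 5 of the 20 probe sets were under the floor of 16 on all arrays and no background level is given.

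The claudins outside the 10 gave no calls. Probe sets naming 1 gene covered 10 more claudins, and limma called 0 of them in each of the 3 comparisons, with 0, 0 and 1 at an unadjusted p under 0.05, and the methods' t-test called 0 in each. Their median log2 differences were -0.03, 0.08 and 0.10. Most of these claudins were dim. Of their 15 probe sets 2 read over 100 on any array, and CLDN8 and CLDN20 were under the floor on all 15 arrays. The lack of calls, beside the shares of all genes given above, therefore does not show that these claudins did not differ. CLDN22 was not used, since its probe sets also name WWC2.

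Genes near each claudin on its chromosome were set beside it, with the median difference of the 9988 expressed genes taken as 0. CLDN3 and CLDN4 had the same 30 nearest neighbours. These had a median difference of -0.05 in CD90+/CD133- against CD90-/CD133- cells and lay between -0.59 and 0.45. CLDN3, at 1.31, was above all 30 and CLDN4, at -0.95, below all 30. CLDN11, at 5.03, was above all 30 of its neighbours, whose median was 0.56 and highest 3.01. The neighbours of CLDN7 had a median of -0.39, close to its own -0.46, and 10 of 30 lay below it. CLDN1, CLDN16 and CLDN18, all on chromosome 3 with CLDN11, had neighbour medians of 0.38, 0.38 and 0.26, and read -0.09, -0.30 and 0.10 themselves. CLDN1 and CLDN16 fell under 26 and 29 of their 30 neighbours, which were the same genes for both. DNA copy number was not measured, and its part in these values was not tested.

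**Figure D4:**
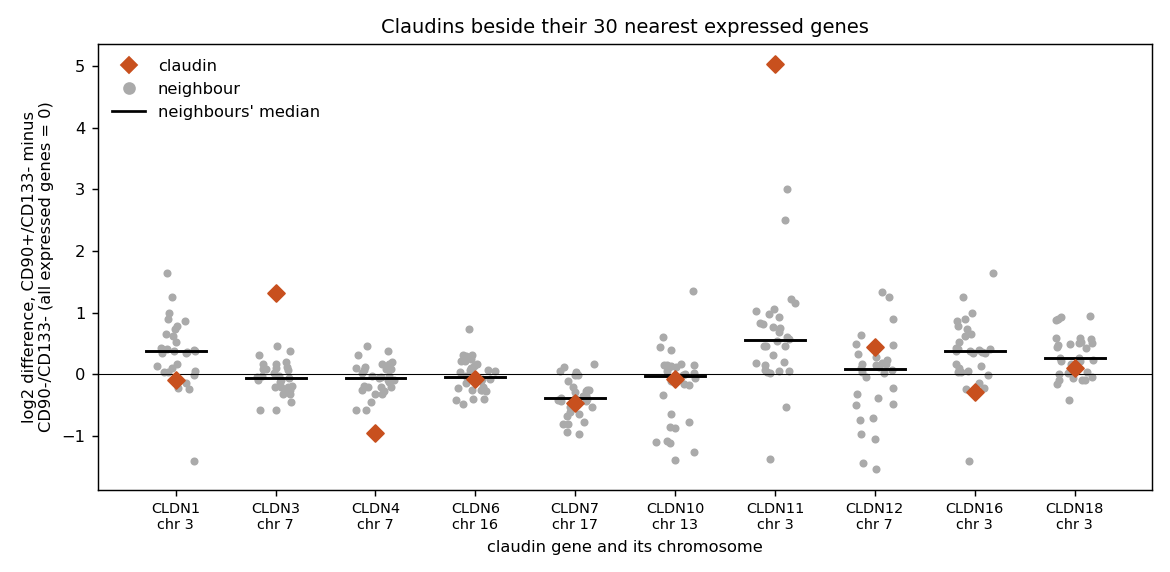
Log2 difference of CD90+/CD133- from CD90-/CD133- arrays, measured from the median of 9988 expressed genes, for each claudin (diamonds) and its 30 nearest expressed genes on the chromosome (grey points, black bar at their median). CLDN3 and CLDN11 stand above and CLDN4 below all of their 30 neighbours, and CLDN7 lies near its neighbours' median of -0.39.

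The 5 genes whose log2 pattern over the 15 arrays was most like that of CLDN11, by root mean square difference after centring, were CBFB (0.477), SWINGN (0.570), SOX7 (0.751), IER3 (0.790) and BASP1 (0.793). CBFB, a partner subunit of the RUNX factors, ran from a geometric mean of 22.8 in CD90-/CD133- cells to 736.8 for CD90+/CD133- and 808.3 for CD90+/CD133+ cells. SWINGN, a long non-coding RNA, ran from 37.7 to 1412 and 1492. Like CLDN11, all 5 were higher on every CD90+ array than on any CD90-/CD133- array. They were picked for closeness to CLDN11 on these same arrays, so this separation follows from the choice and nothing is read from it. The pattern used was that of the brightest CLDN11 probe set, whose gap the other CLDN11 probe sets did not show.

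The partners of the claudins in the junction moved in both directions. Of 38 measured genes of junction membrane proteins, scaffolds and claudin-binding proteins, 11 rose (28.9%) and 10 fell (26.3%) in CD90+/CD133- against CD90-/CD133- cells, beside 14.8% and 17.6% of all genes, with a median of 0.05. All genes include many dim ones. With the 9988 genes of mean intensity 64 or more tested alone, 5815 were called, 2768 of them higher. No excess of calls among the partners is therefore read from these shares. In the other comparisons no excess is read either. In CD90+/CD133+ against CD90-/CD133- cells 10 rose and 10 fell (26.3% each), beside 14.2% and 17.0% of all genes. Between the CD90+ fractions 0 rose and 4 (OCLN, TJP1, MPDZ and PRKCI, 10.5%) fell in CD133+ cells, beside 2.30% and 2.31% of all genes. None of these 4 was called with 2 fractions per fit or by the methods' t-test, 1 was called without the replicate block, and the count was 1 or 2 without any 1 of 10 arrays (CD90-/CD133- replicates 2 and 5, CD90+/CD133- replicates 1 to 4, CD90+/CD133+ replicates 2 to 5). Adjusted p-values are from limma over all genes.

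Of 12 other junction membrane proteins 2 rose and 3 fell in CD90+/CD133- cells. JAM3, an adhesion molecule of the junction, fell from a geometric mean of 443.7 to 117.3 (log2 difference -1.92, SE 0.0912, adjusted p = 3.34e-06) and stood at 107.8 in CD90+/CD133+ cells. CXADR, an adhesion molecule and virus receptor, rose from 261.2 to 543.2 (1.06, SE 0.117, adjusted p = 0.000194). OCLN, the occludin that lines the strands beside claudins, rose from 1172 to 1767 (0.59, SE 0.0598, adjusted p = 0.000118), and was at 1447 in CD90+/CD133+ cells. ILDR2, of the junctions where 3 cells meet, fell by 0.89 (SE 0.156, adjusted p = 0.00236), near the floor, a call lost with a floor of 64.

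Among 19 scaffold and polarity genes 7 rose and 5 fell (36.8% and 26.3%, beside 14.8% and 17.6% of all genes). PARD3, a polarity scaffold, rose by 1.13 (SE 0.0948, adjusted p = 4.65e-05) and its kinase partner PRKCI by 0.74 (SE 0.0656, adjusted p = 5.94e-05). MAGI3, a membrane scaffold, rose by 0.92 (SE 0.112, adjusted p = 0.00033). TJP1, which encodes ZO-1, the protein that ties claudins to actin, rose from 2006 to 3146 (0.65, SE 0.033, adjusted p = 4.49e-06). It was at 2505 in CD90+/CD133+ cells, between the other fractions.

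Among 7 claudin-binding membrane proteins 2 rose and 2 fell (28.6% each, beside 14.8% and 17.6% of all genes). The tetraspanins CD81 and CD9 fell by 0.91 (SE 0.102, adjusted p = 0.000201) and 0.73 (SE 0.0903, adjusted p = 0.000359), and the methods' t-test did not call CD9. EPCAM, the partner of CLDN7, rose by 0.33 (SE 0.0647, adjusted p = 0.00429), while CLDN7 itself read 0.49 lower on the log2 scale. SPINT1, an inhibitor of the surface protease matriptase, rose by 0.43 (SE 0.0925, adjusted p = 0.0066), a call lost with 2 fractions per fit.

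**Figure D5:**
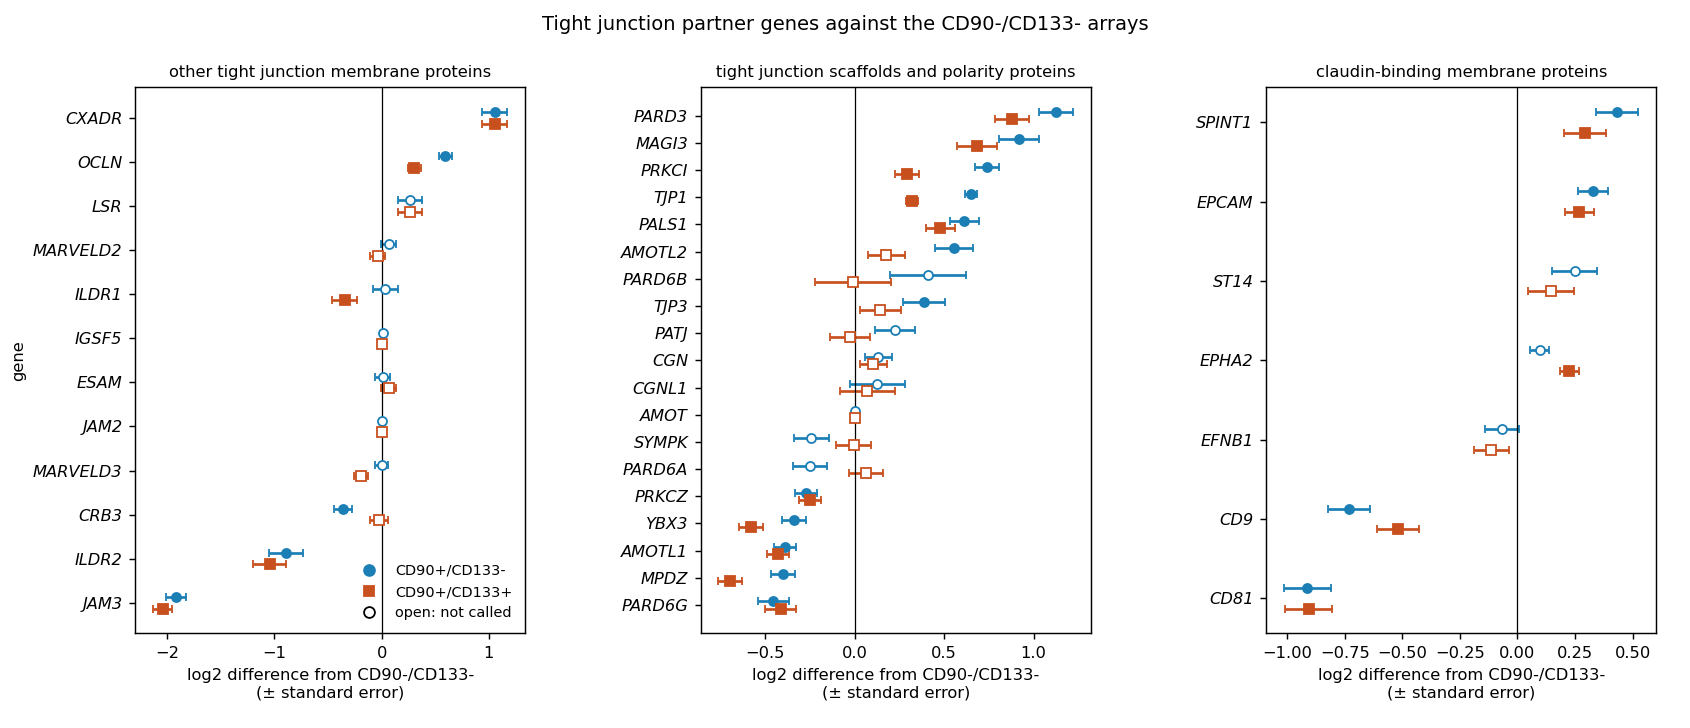
Log2 difference (± standard error) from the CD90-/CD133- arrays of the measured junction partner genes in 3 lists, for CD90+/CD133- (circles) and CD90+/CD133+ arrays (squares), filled where limma called the gene at an adjusted p under 0.05. JAM3 lies lowest, at -1.92 and -2.04, and PARD3 and CXADR highest among these genes.

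Of 17 adherens junction and desmosome genes 4 rose and 5 fell in CD90+/CD133- cells. These were 23.5% and 29.4%, beside 14.8% and 17.6% of all genes, and nothing is read from the shares. The counts were 2 and 2 without the replicate block and 1 and 1 by the methods' t-test. The number that fell was 3 with 2 fractions per fit and without any 1 of 5 arrays (CD90-/CD133- replicates 2 and 4, CD90+/CD133- replicates 1, 2 and 4). PKP3, a desmosome plaque protein, fell by 0.76 (SE 0.0573, adjusted p = 2.72e-05). CTNNB1, which encodes beta-catenin, rose by 0.67 (SE 0.0568, adjusted p = 4.79e-05) and the desmosomal cadherin DSC3 by 0.71 (SE 0.127, adjusted p = 0.00265), and the methods' t-test did not call DSC3. NECTIN4 fell by 0.49 (SE 0.132, adjusted p = 0.0201), a call lost without CD90-/CD133- replicate 2 or CD90+/CD133- replicate 1, 2 or 4 (adjusted p up to 0.0602). The NECTIN4 call was also lost with no replicate block, with 2 fractions per fit and by the methods' t-test. Of 15 regulators of epithelial genes 4 rose (GRHL1, OVOL1, EHF and ESRP1) and 3 fell (the Snail gene SNAI1, TWIST1 and KLF4). The number that fell was 1 with 2 fractions per fit and without CD90-/CD133- replicate 4 or CD90+/CD133- replicate 2 or 4. EHF, an epithelial ETS factor, rose from 242.6 to 1914 (2.98, SE 0.186, adjusted p = 1.15e-05) and OVOL1, a repressor of mesenchymal genes, by 1.20 (SE 0.138, adjusted p = 0.000244). TWIST1, an inducer of the mesenchymal state, fell from 121.5 to 30.5 (-1.99, SE 0.127, adjusted p = 1.27e-05). KLF4, a factor of differentiating epithelium, fell by 1.00 (SE 0.275, adjusted p = 0.0222), a call lost without replicate 2 or 4 of either fraction, CD90-/CD133- replicate 3 or CD90+/CD133- replicate 1 (adjusted p up to 0.0668). No replicate block, 2 fractions per fit and the methods' t-test each lost the KLF4 call as well.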

How the data were processed

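Total RNA from 15 sorted PEO1 samples was hybridized by the authors to Affymetrix U133 Plus 2.0 arrays. Per probe set the authors deposited a linear intensity, normalized by cross-correlation, and no array holds a value below 5. The summarising software is not given in the sources used here. Median intensity per array was 29.4 to 32.4, and arrays give no read depth, so their number limits the precision.

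Of 54675 probe sets, 41091 named 1 gene and were no controls. They gave 19775 genes, each read from its brightest probe set over the arrays. Values under 16 were set to 16 before log2. All arrays entered 1 limma fit (limma 3.58.1 under R 4.3.3, lmFit then eBayes) with fraction and, as block, replicate number. Tests were 2-sided, and a gene was called at a Benjamini-Hochberg adjusted p under 0.05 across the 19775 genes. The script was tested on simulated data. Tables used Python 3.11.15.

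Same-numbered arrays deviated together (lowest correlation 0.20, 0.206 and 0.371 in the 3 comparisons, against a highest of 0.193, 0.229 and 0.384 between different numbers), and labels share codes within a number, which is where the pairing comes from. Replicates 4 and 5 carry the same code, so the codes alone do not separate 5 sets, and the design text speaks of triplicates where the labels number 5. The methods name 5 biological replicates for the first fractions, and how CD90+/CD133+ replicates relate is not given.

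The members and gene lists were chosen with earlier results of these data known. Named genes are the 10 claudins with every probe set, up to 4 called genes of each partner list with the largest difference in CD90+/CD133- against CD90-/CD133- cells, THY1, PROM1 and the 5 genes closest to CLDN11. Neighbours are the 30 nearest genes with a mean of 64 or more, by RefSeq order (GRCh38.p14). For arrays the methods state a fold cutoff (1.5) on averages and no test. The methods' t-test is taken from their general statistics section. Alternatives tried were quantile normalization, median centring, floors, probe set rules, a filter on dim genes, an intensity trend, fits per 2 fractions, no block, the methods' t-test, and each array or replicate number left out.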

Additional observations from a re-analysis of the deposited data

Results flagged for a closer look

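On the second CLDN1 probe set, 218182_s_at, replicate 1 of the CD90-/CD133- arrays stood apart from the other 4 of its fraction. It read 454.7, and its gap to the next array took 0.78 of the log2 range of the fraction, above Dixon's critical value of 0.71 for 5 samples. Chance flags about 1 in 20 groups, and 45 groups (each fraction of each claudin probe set not wholly at the floor) were checked, of which 1 stood out.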

How the results depend on the processing

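With no replicate block (the pairing left out), limma called 3 claudins higher and 2 lower in CD90+/CD133- against CD90-/CD133- cells, as with the block, while the claudins called lower in CD90+/CD133+ against CD90-/CD133- cells went from 2 to 1, since CLDN7 was lost. The same count was 1 with 2 fractions per fit, with array medians centred and with the methods' t-test, and ranged from 1 to 2 over the arrays and replicate numbers left out. The methods' t-test also gave 1 claudin called lower in CD90+/CD133- cells, where CLDN7 was lost, and 2 called higher in CD90+/CD133+ cells, where CLDN12 was lost. Between the CD90+ fractions, 1 claudin (CLDN3, higher) was called with the mean of probe sets and with genes of mean intensity 64 or more alone. Of the single claudins' differences under the alternatives, 793 moved by at most 1 SD between replicates and 17 moved further. Of these, 27 changed sign (24 and 3), none of them a called difference. The 793 include fits without an array of the fraction outside the comparison, which cannot change the difference. They also include probe sets under the floor on all arrays, whose difference is fixed by the floor. Their number is therefore no measure of stability. CLDN11 moved with the floor at 64 (log2 difference 4.13 and 4.45 in the CD90+ fractions) and with the mean of its probe sets (1.74 and 1.91), and CLDN4 with the mean of its probe sets (-0.50 and -0.44). The floor of 64 lifts the CD90-/CD133- arrays on which CLDN11 read below it, and the mean takes in the dim probe sets. Why other differences moved was not tested. Over all genes, limma called 6399 in CD90+/CD133- against CD90-/CD133- cells and the methods' t-test 3473. Limma called 4430 there without the replicate block and 5059 with 2 fractions per fit. Since the claudins were chosen with these contrasts known, nothing is read from their counts under any setting. The 38 partner genes kept counts within 1.5 times in CD90+/CD133- against CD90-/CD133- cells (9 higher and 7 lower by the methods' t-test). In CD90+/CD133+ against CD90-/CD133- cells that test called 5 of them higher where limma called 10, and 1 of the claudin-binding proteins where limma called 5. Between the CD90+ fractions 1 or 2 partners were called higher under several alternatives, against 0.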
